A study of Mus musculus with 6 samples.

Results

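The 32 genes described here are V2R pheromone receptor genes that lie outside the large receptor clusters of chromosomes 7 and 17. They were chosen by gene symbol alone, as Vmn2r8 to Vmn2r27, Vmn2r80 to Vmn2r87, Vmn2r89, Vmn2r121 to Vmn2r123, and Vmn2r125 and above, and 32 of the 122 quantified genes named Vmn2r with a number met this rule, of 35521 genes in all. Vmn2r123 and symbols above Vmn2r125 were not analysed here. The rule leaves out the family C genes Vmn2r1 to Vmn2r7 on chromosome 3, Vmn2r88 on chromosome 14 and the genes named Vmn2r-ps, which also include genes outside chromosomes 7 and 17. Expression was measured by poly(A) RNA sequencing of the vomeronasal organ of 3 wild-type (Cnpy1+/+) and 3 Cnpy1 knockout (Cnpy1-/-) littermate mice, all at postnatal day 60. Each genotype had 2 males and 1 female, the female being wild-type mouse 2 and knockout mouse 3, and both organs of a mouse went into 1 library. The labels do not say how the knockout allele was made or which strain carries it.

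V2R genes encode class C G protein-coupled receptors with a large extracellular domain that binds peptides and proteins. They are expressed in the basal sensory neurons of the vomeronasal organ, which use the G protein subunit Gnao1 and the channel Trpc2, and each neuron makes few V2R types together with a family C V2R that acts as a shared partner. Cnpy1 belongs to the Canopy genes, whose proteins reside in the endoplasmic reticulum. The comparison asked how the mRNA of each receptor differs between wild-type and Cnpy1 knockout mice.

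The members fall into 4 clusters and 5 single loci (GRCm38, GENCODE M21). Vmn2r8 to Vmn2r17 lie on chromosome 5 between 108791843 and 109458459, and Vmn2r19 to Vmn2r27 on chromosome 6 between 123308333 and 124231856. Chromosome 10 carries 2 separate clusters, Vmn2r80 to Vmn2r83 between 79148769 and 79493585 and Vmn2r84 to Vmn2r87 between 130377925 and 130497396. The single loci are Vmn2r18 (chromosome 5, 151561190 to 151606021), Vmn2r89 (chromosome 14, 51451857 to 51464172), Vmn2r121 (chromosome X, 124124961 to 124135952), Vmn2r125 (chromosome 4, 156344200 to 156355905) and Vmn2r122, which the annotation places on a scaffold outside the assembled chromosomes. The annotation calls 31 of the 32 protein-coding and Vmn2r125 an unprocessed pseudogene, yet Vmn2r125 had 2414 to 4391 estimated reads in every library.

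Neighbouring members can have nearly the same sequence upstream of their start. The 3 pairs below are shown because their upstream sequences are alike while their changes between wild type and knockout were not. The sequences are RefSeq's (GRCm38.p6), 5′ to 3′ on the gene's strand, ending upstream of the gene start in both RefSeq and GENCODE, and capitals mark the bases that differ within a pair or stand opposite a gap.
Vmn2r12, chr5:109097957-109098114, minus strand: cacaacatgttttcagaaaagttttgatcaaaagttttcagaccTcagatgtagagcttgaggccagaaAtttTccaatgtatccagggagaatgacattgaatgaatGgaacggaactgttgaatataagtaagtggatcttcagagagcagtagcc
Vmn2r13, chr5:109192200-109192357, minus strand: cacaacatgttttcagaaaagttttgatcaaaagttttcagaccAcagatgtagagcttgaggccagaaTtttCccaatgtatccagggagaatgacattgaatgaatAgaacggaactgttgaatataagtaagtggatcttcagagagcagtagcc
Vmn2r20, chr6:123418152-123418311, minus strand: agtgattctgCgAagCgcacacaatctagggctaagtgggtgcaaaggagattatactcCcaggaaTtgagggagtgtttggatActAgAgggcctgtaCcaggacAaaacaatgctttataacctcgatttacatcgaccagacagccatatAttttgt
Vmn2r22, chr6:123650726-123650885, minus strand: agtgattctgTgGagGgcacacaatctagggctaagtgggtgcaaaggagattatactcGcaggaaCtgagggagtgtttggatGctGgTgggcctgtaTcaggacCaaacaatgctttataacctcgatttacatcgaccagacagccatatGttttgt
Vmn2r85, chr10:130429767-130429862, minus strand: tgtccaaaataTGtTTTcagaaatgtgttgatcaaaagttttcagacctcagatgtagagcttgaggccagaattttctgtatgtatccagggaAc
Vmn2r86, chr10:130456051-130456144, minus strand: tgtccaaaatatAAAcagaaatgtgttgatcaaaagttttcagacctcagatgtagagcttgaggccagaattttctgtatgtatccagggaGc
Over these stretches Vmn2r12 and Vmn2r13 differ by 4 substitutions in 158 aligned bases, and Vmn2r20 and Vmn2r22 by 11 in 160. Vmn2r85 and Vmn2r86 differ by 4 substitutions and 2 gap bases in 96. Over the 250 bases compared further on, these 2 genes are 88.98% identical, under the 90% cut used there for close pairs. In each pair, the values given further on show 1 receptor that was lower in the knockout and 1 that did not pass the test.

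The libraries held 60969508 to 71670766 estimated reads. Cnpy1 itself fell from 303 ± 22.5 to 73.7 ± 5.66 CPM (SD, n = 3 each), with every knockout below every wild type. The labels do not say which part of the gene is altered, so the remaining reads were not placed relative to it. CPM are counts scaled to the size of the library, here adjusted between libraries by edgeR's TMM factors. All 32 members passed the filter on low counts and were tested. Genes with an adjusted p under 0.05 in edgeR's quasi-likelihood test over 16692 genes are described as called.

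Of the 32 receptors, 18 were called lower in the knockout and 0 higher, where 0.689% of all genes tested were called lower and 0.0779% higher. The log2 fold change was below 0 for 26 members and for 47.7% of all genes tested. DESeq2 called 19 members lower, beside 1.76% of the genes it tested, and 0 higher, and 23 members had an unadjusted edgeR p under 0.05, as had 10.5% of all genes tested. The decrease was at least 2-fold for 13 of the 18 and at least 4-fold for 8. Their log2 fold changes ran from -0.43 to -2.87 with a median of -1.91. The median over all 32 members was -0.94, beside 0.01 over all genes tested. For 20 members every knockout lay below every wild type, which held for 8.95% of all genes tested.

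**Figure D1:**
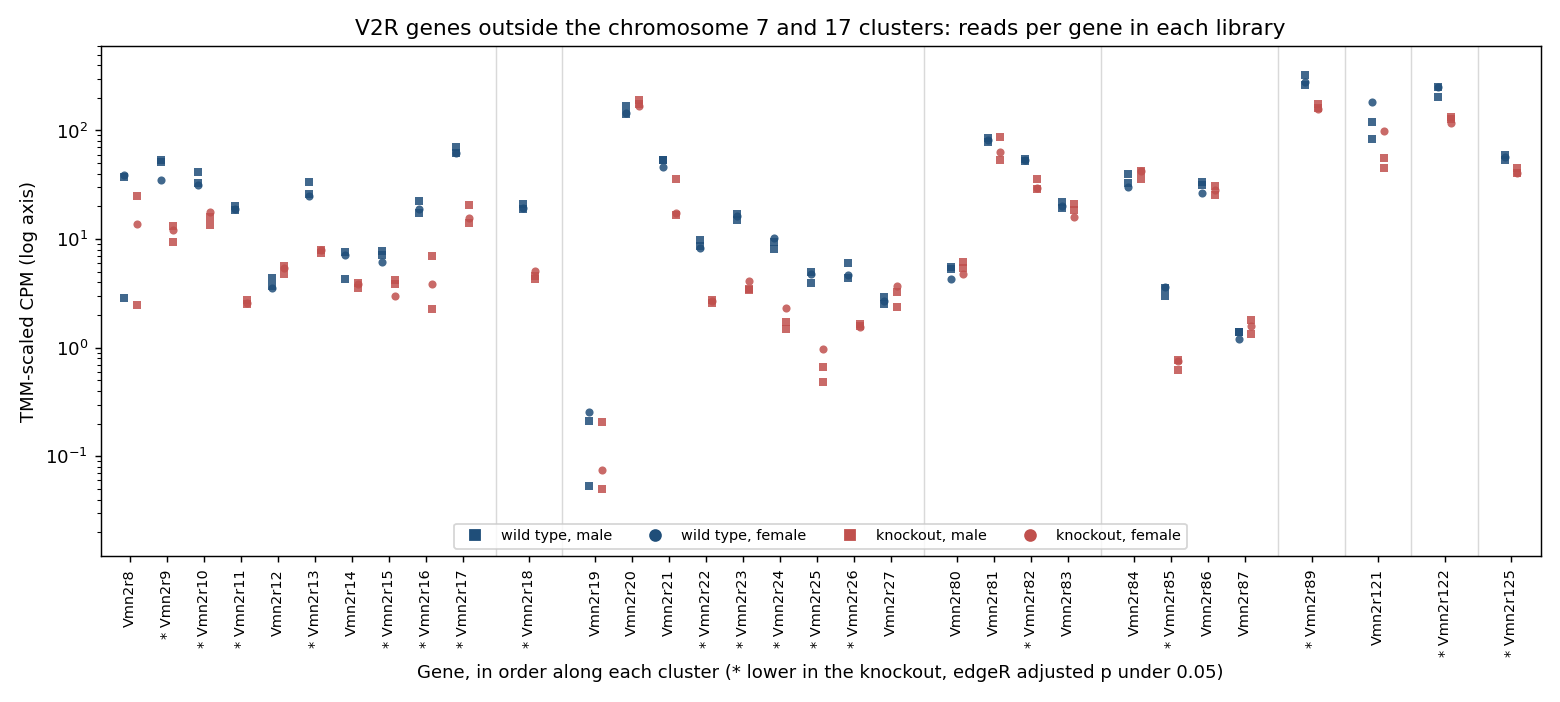
TMM-scaled CPM (vertical, log axis) of each receptor in 3 wild-type (blue) and 3 knockout (red) libraries, squares for males and circles for females, with vertical lines between clusters and an asterisk before the 18 genes called lower. The points of Vmn2r11 form separate groups, 18.4 to 20.3 CPM in wild type and 2.51 to 2.77 CPM in the knockout, whereas those of Vmn2r86 overlap.

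Relative to wild type, the chromosome 5 cluster had the largest summed decrease of the 4 clusters and the group of single loci. Summed CPM of its 10 genes, taken without TMM scaling, were 258, 254 and 270 in wild-type mice 1, 2 and 3 and 65.1, 97.5 and 89.99 in knockout mice 1, 2 and 3. The knockout mean was 32.4% of the wild-type mean, a log2 ratio of -1.63. Such a sum does not depend on how reads were divided among similar receptors of the cluster. In RNA from a whole organ, fewer neurons that express a receptor and less mRNA per neuron cannot be told apart.

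Of the 10 chromosome 5 genes, 7 were called lower. Vmn2r11 (109043360 to 109059569) showed the largest decrease of all 32 receptors. Its wild-type libraries held 18.4, 18.8 and 20.3 CPM and its knockout libraries 2.51, 2.77 and 2.57 CPM. This is a log2 fold change of -2.87 with an SE of 0.09 (edgeR adjusted p = 4.51e-06). The range within each genotype was narrow beside the gap between them.

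Vmn2r17 (109419688 to 109458459) was the most abundant chromosome 5 member per length, at 11.7 ± 1.60 TPM (SD, n = 3) in wild type. TPM, a measure of transcript abundance, divide reads by transcript length and so allow levels to be compared between genes. Its CPM were 61.7, 62.5 and 70.9 in wild type and 14.1, 20.6 and 15.7 in the knockout (log2 fold change -1.95, SE 0.13, edgeR adjusted p = 0.000258). Vmn2r9 went from 53.7, 34.7 and 50.8 to 9.37, 13.3 and 12.02 CPM (-2.01, SE 0.18, edgeR adjusted p = 0.00168). The knockout means were 25.9% and 24.9% of wild type, and neither receptor's groups overlap.

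Vmn2r16 had a log2 fold change of similar size, -2.17 (SE 0.33, edgeR adjusted p = 0.0286), with more spread. Its knockout libraries held 2.25, 6.93 and 3.88 CPM, against 17.5, 19.1 and 22.3 in wild type. The groups do not overlap, but the call was lost without wild-type mouse 1, 2 or 3 or knockout mouse 3 (edgeR adjusted p = 0.0918, 0.121, 0.124 and 0.0795). It was also lost with sex as a term (0.0612) and in males only (0.189). Vmn2r10 (-1.18, edgeR adjusted p = 0.00486) and Vmn2r15 (-0.94, edgeR adjusted p = 0.0377) were called with smaller changes. Vmn2r15 lost its call whichever library was left out (edgeR adjusted p from 0.0596 to 0.159), in males only (0.0620) and with the replicate block (0.0507).

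Vmn2r12 and Vmn2r13 are adjacent genes of this cluster with the upstream sequences printed above. Vmn2r13 held 26.0, 24.8 and 33.8 CPM in wild type against 7.87, 7.45 and 8.002 in knockouts, which is -1.86 on the log2 scale (SE 0.12, edgeR adjusted p = 0.000191). Vmn2r12 held 3.71, 3.56 and 4.36 CPM in wild type against 4.79, 5.62 and 5.38 in knockouts. That difference was 0.44 on the log2 scale (SE 0.12, edgeR adjusted p = 0.234), and it was the only member with every knockout above every wild type, which held for 7.21% of all genes tested. The reads of Vmn2r13 were 7.01, 6.96 and 7.75 times those of Vmn2r12 in wild type and 1.64, 1.33 and 1.49 times in the knockout. The ratios of the 2 genotypes do not overlap. Of the 31-base words in the transcripts of Vmn2r12 and Vmn2r13, 64.1% and 66.2% occur in no other gene.

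Vmn2r8 differed more between mice of 1 genotype than between genotypes. Wild-type mice 1, 2 and 3 held 37.3, 39.2 and 2.90 CPM, a 13.5-fold range, and knockout mice 1, 2 and 3 held 2.46, 25.1 and 13.8 CPM. The log2 fold change was -0.94 with an SE of 0.92 (edgeR adjusted p = 0.796). Wild-type mouse 3, the low one, was not low for the adjacent Vmn2r9, with which Vmn2r8 shares 20.2% of its 31-base words. The summed reads of Vmn2r8 and Vmn2r9 were 88.0, 75.6 and 56.0 CPM in wild type against 11.5, 36.4 and 27.03 in knockouts, without overlap. Vmn2r14 was likewise lower in wild-type mouse 3 (4.25 CPM) than in mice 1 and 2 (7.59 and 7.16 CPM), and knockouts lay between 3.54 and 3.90 CPM. It was not called (log2 fold change -0.74, edgeR adjusted p = 0.233), and was called without wild-type mouse 3 (-0.97, edgeR adjusted p = 0.0144) and by DESeq2 (adjusted p = 0.0212).

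On chromosome 6, 5 of 9 genes were called lower, the consecutive receptors Vmn2r22 to Vmn2r26. Vmn2r25 (123821646 to 123853463) went from 3.95, 4.74 and 4.95 to 0.48, 0.67 and 0.98 CPM (log2 fold change -2.67, SE 0.25, edgeR adjusted p = 0.00175). Vmn2r24 went from 8.18, 10.21 and 9.32 to 1.72, 1.49 and 2.31 CPM (-2.32, SE 0.17, edgeR adjusted p = 0.000426). Vmn2r24 and Vmn2r25 overlap on opposite strands between 123821646 and 123824912, and the counting is not stated to use strand, so reads from that stretch cannot be assigned with certainty. Vmn2r23 held 14.9, 16.4 and 16.9 CPM in wild type against 3.44, 3.39 and 4.08 in knockouts (-2.14, SE 0.10, edgeR adjusted p = 3.52e-05).

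Vmn2r26, known as V2r1b, is the receptor of neurons that respond to peptide ligands of MHC class I molecules. Its wild-type libraries held 4.35, 4.70 and 6.01 CPM and its knockout libraries 1.64, 1.58 and 1.56 CPM. Vmn2r26 changed by -1.66 on the log2 scale (SE 0.16, edgeR adjusted p = 0.00178). Its most used transcript is annotated for nonsense-mediated decay. Its 1 protein-coding transcript was assigned reads in wild-type mouse 3 alone, 90.2 estimated reads, and 0 in each of the other 5 libraries, so the coding part gives no comparison.

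Vmn2r20 and Vmn2r22 form the chromosome 6 pair printed above. Vmn2r22 went from 8.72, 8.25 and 9.84 to 2.77, 2.59 and 2.68 CPM (log2 fold change -1.74, SE 0.11, edgeR adjusted p = 0.000132). Vmn2r20 held 143, 146 and 170 CPM in wild type against 174, 191 and 167 in knockouts (0.22, SE 0.08, edgeR adjusted p = 0.409), and the groups overlap. By CPM Vmn2r20 was the most abundant gene of this cluster, but its most used transcript is 14366 bases long, and per length it stood at 14.04 ± 2.13 TPM in wild type and 15.3 ± 0.453 TPM in the knockout (SD, n = 3 each).

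Vmn2r21 was the most abundant chromosome 6 member per length, at 28.3 ± 2.33 TPM (SD, n = 3) in wild type. Its CPM were 53.7, 46.5 and 53.3 in wild type and 16.8, 36.1 and 17.3 in the knockout, so all knockouts were below all wild types and knockout mouse 2 stood apart from the other two. It was not called (log2 fold change -1.13, SE 0.27, edgeR adjusted p = 0.159), but was called without knockout mouse 2 (-1.59, edgeR adjusted p = 0.000305) and by limma on TPM (-1.26, adjusted p = 0.0297). Only 0.276% of its 31-base words occur in no other gene, and Vmn2r20 holds 85.5% of them, so its estimate is uncertain. The summed reads of Vmn2r20 and Vmn2r21 were 190, 197 and 233 CPM in wild type against 186, 215 and 193 in knockouts, which overlap.

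Vmn2r20 dominates any sum of reads over this cluster. Summed CPM of the 9 genes were 254 ± 27.4 in wild type and 212 ± 14.02 in the knockout (SD, n = 3 each), a log2 ratio of -0.26. Summed TPM gave -0.78, and Vmn2r21, the member with few unique words, makes up 28.3 of the 53.1 TPM in wild type. Without Vmn2r21, summed TPM gave -0.39 and summed CPM -0.10. Without wild-type mouse 3 the CPM ratio of all 9 genes was -0.17. Vmn2r27 (2.71 ± 0.203 and 3.09 ± 0.668 CPM; SD, n = 3 each; log2 fold change 0.19, edgeR adjusted p = 0.788) was not called. Vmn2r19 was near the limit of detection, with 3.00 to 16.01 estimated reads per library, and was not called (edgeR adjusted p = 0.821).

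**Figure D2:**
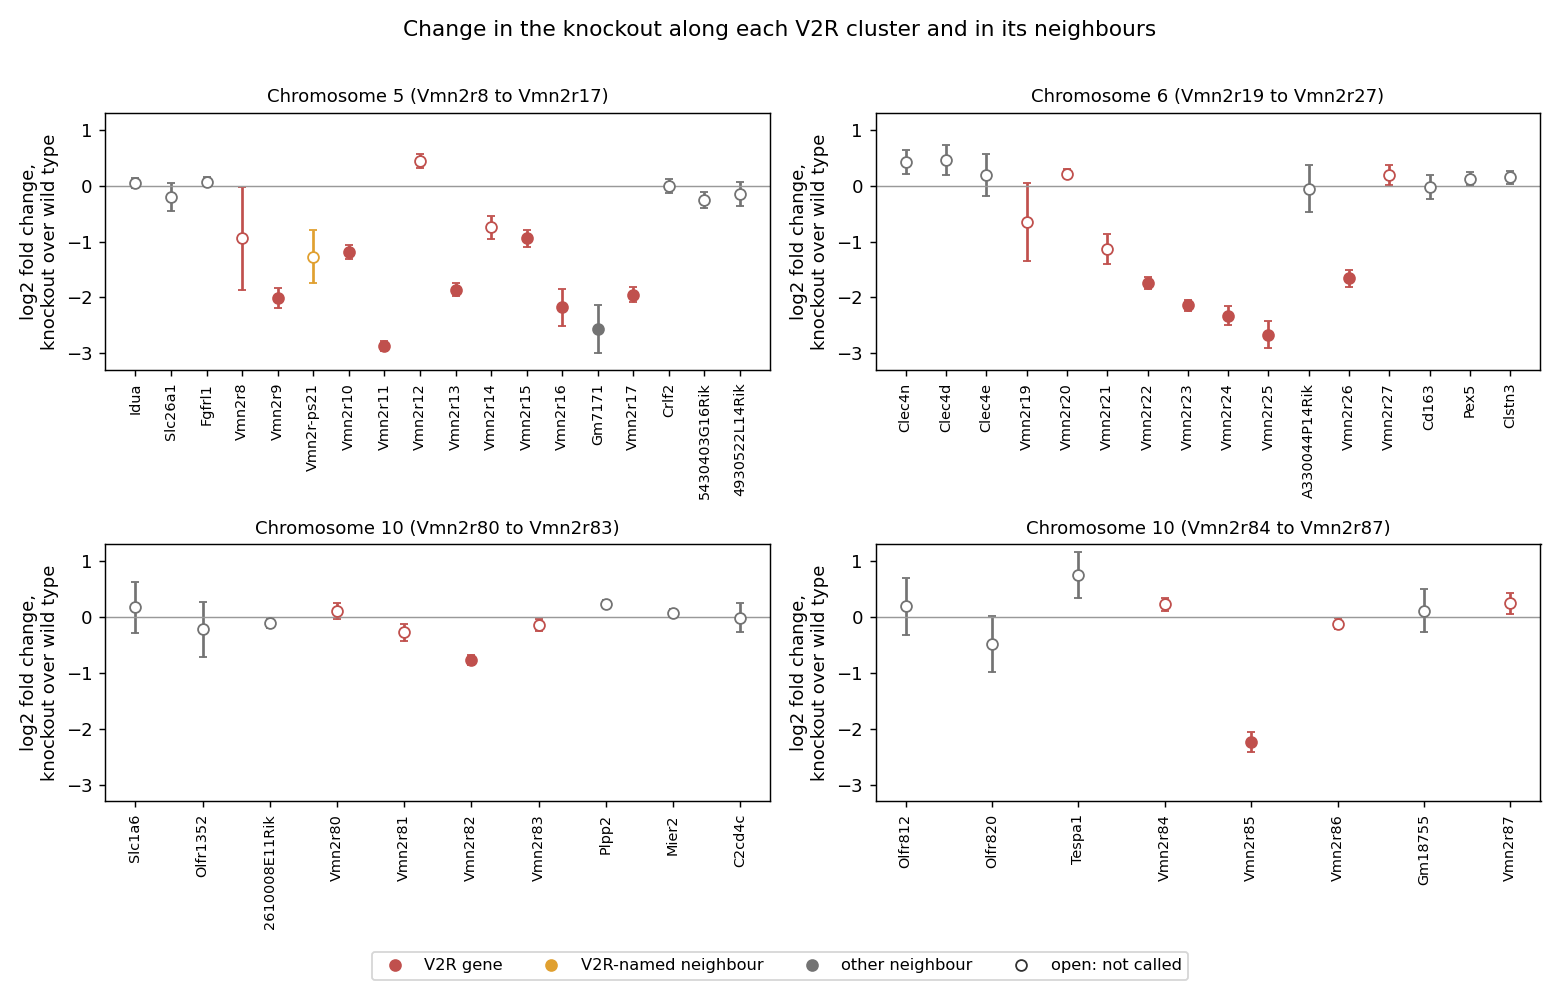
Log2 fold change of the knockout over wild type (vertical, same scale in all panels, bars are SE) for the genes of the 4 clusters in chromosome order (horizontal), with the tested neighbours in grey or yellow and genes that were not called as open circles. Called receptors reach -2.87 on chromosome 5, while Vmn2r12, Vmn2r20 and Vmn2r84 lie above 0 among them and were not called.

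The chromosome 10 clusters showed 1 called gene each. In the first, Vmn2r82 (79356520 to 79397849) went from 55.0, 53.8 and 52.0 to 29.0, 36.01 and 29.4 CPM (log2 fold change -0.77, SE 0.08, edgeR adjusted p = 0.00442), and kept 58.7% of its wild-type level. It was not called in males only (edgeR adjusted p = 0.0588). Vmn2r81, also known as V2rf2, was the most abundant member of the cluster at 33.8 ± 1.18 TPM (SD, n = 3) in wild type. Its CPM were 85.4, 81.8 and 78.3 in wild type and 53.7, 86.2 and 63.1 in the knockout, where mouse 2 was above all wild types (log2 fold change -0.27, SE 0.15, edgeR adjusted p = 0.584).

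Vmn2r83 held 19.4, 19.96 and 21.98 CPM in wild type against 21.03, 18.7 and 15.9 in knockouts (-0.14, edgeR adjusted p = 0.710), and the groups overlap. Vmn2r80 held 5.05 ± 0.690 and 5.45 ± 0.709 CPM (SD, n = 3 each; log2 fold change 0.11, edgeR adjusted p = 0.863). The reads of Vmn2r82 were 10.36, 12.6 and 9.32 times those of Vmn2r80 in wild type and 5.42, 5.81 and 6.14 times in the knockout, and the 250 bases upstream of their starts are 94.8% identical. The cluster summed to 163 ± 2.64 CPM in wild type against 121.5 ± 16.8 in knockouts (SD, n = 3 each), without overlap.

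In the second chromosome 10 cluster, Vmn2r85 (130414064 to 130429703) was the 1 gene called. It went from 2.97, 3.64 and 3.54 to 0.62, 0.77 and 0.76 CPM, which is -2.24 on the log2 scale (SE 0.17, edgeR adjusted p = 0.000616). Vmn2r86, the next gene, held 33.7, 26.6 and 31.6 CPM in wild type against 25.6, 30.8 and 28.4 in knockouts (-0.12, SE 0.10, edgeR adjusted p = 0.770). Vmn2r84 held 32.9, 30.1 and 39.4 CPM in wild type against 35.4, 42.1 and 42.3 in knockouts (0.23, SE 0.11, edgeR adjusted p = 0.524). Vmn2r87, at 1.33 ± 0.105 and 1.58 ± 0.239 CPM (SD, n = 3 each; log2 fold change 0.25, edgeR adjusted p = 0.720), was not called either.

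Vmn2r84 and Vmn2r86 hold most of the reads of this cluster, whose summed values overlap between the genotypes, at 70.3 ± 8.17 and 69.8 ± 7.78 CPM (SD, n = 3 each). The reads of Vmn2r85 were 0.0881, 0.137 and 0.112 times those of Vmn2r86 in wild type and 0.0239, 0.0251 and 0.0265 times in the knockout. Of the words of Vmn2r85, 71.4% occur in no other gene and 21.2% occur in Vmn2r86.

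**Figure D3:**
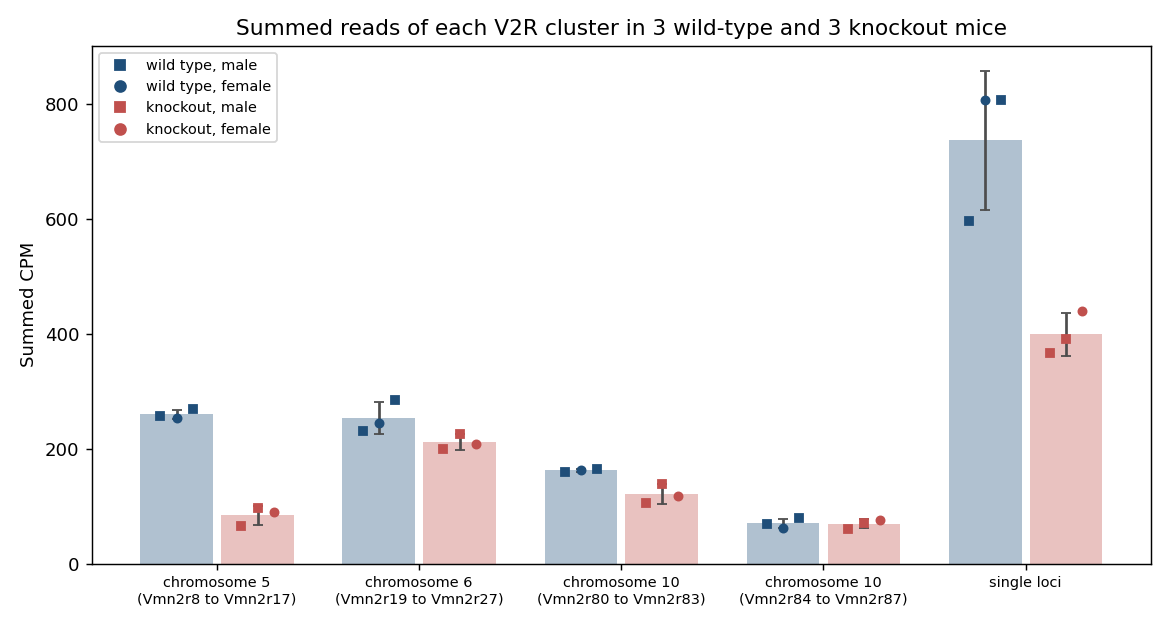
Summed CPM (vertical, from 0) of the 4 clusters and the 5 single loci, with bars for the mean, error bars for the SD over 3 mice, and points for mice (squares males, circles females). Chromosome 5 fell from 260 to 84.2 CPM on average, whereas the points of Vmn2r84 to Vmn2r87 overlap.

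The single loci include the most abundant members. Vmn2r122 ranked first at 115 ± 20.9 TPM in wild type and 57.6 ± 2.20 TPM in the knockout (SD, n = 3 each), and Vmn2r89 second at 63.6 ± 10.7 and 34.3 ± 1.63 TPM. Vmn2r122 held 201, 252 and 251 CPM in wild type against 127, 133 and 118 in knockouts (log2 fold change -0.90, SE 0.10, edgeR adjusted p = 0.00388). Vmn2r89 held 260, 280 and 324 CPM in wild type against 160, 176 and 158 in knockouts (-0.81, SE 0.09, edgeR adjusted p = 0.00442), and was not called in males only (edgeR adjusted p = 0.0543). Neither receptor's groups overlap.

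Vmn2r125 showed the smallest called change, from 53.8, 57.2 and 58.9 to 40.3, 44.7 and 40.8 CPM (-0.43, SE 0.06, edgeR adjusted p = 0.0166). Its call was lost without wild-type mouse 2 or 3 or knockout mouse 1 or 3 (edgeR adjusted p = 0.101, 0.0783, 0.0842 and 0.0644), in males only (0.203) and with limma on TPM (0.197). Of its 31-base words, 49.9% occur in no other gene searched, Vmn2r122 not being among these, and 41.6% occur in the neighbouring Vmn2r-ps159. Vmn2r18, far from the main chromosome 5 cluster, went from 18.8, 19.2 and 21.1 to 4.53, 4.31 and 5.04 CPM (-2.09, SE 0.09, edgeR adjusted p = 2.22e-05). The knockout mean was 23.5% of wild type, and the groups do not overlap.

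Vmn2r121, on the X chromosome, was highest in the female of each genotype. The wild-type males held 83.6 and 120 CPM and the wild-type female 181 CPM, and the knockout males held 45.3 and 55.3 CPM and the knockout female 98.1 CPM. Genotype alone gave -0.95 on the log2 scale (SE 0.33, edgeR adjusted p = 0.361). With sex as a term in the model, the same change had an SE of 0.14 and was called (-0.97, edgeR adjusted p = 0.0433). In that fit 0.557% of all genes were called lower. With 1 female per genotype, a difference between sexes and a difference between single mice cannot be told apart. For the interaction of genotype and sex, edgeR called 0 of the 32 members and 0.024% of all genes. A single member, Vmn2r9, had an unadjusted interaction p under 0.05, as had 4.5% of all genes. DESeq2 also called 0 members.

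Changes were also set beside the level of each receptor in wild type. Over the 32 members, Spearman's rho between wild-type TPM and the signed log2 fold change was 0.07, a description over genes that share libraries. The 7 members at 20 TPM or more had log2 fold changes from -0.27 to -1.13, with 4 called lower and 0 of these by at least 2-fold. The 25 members under 20 TPM ranged from -2.87 to 0.44, with 14 called lower, 13 of them by at least 2-fold. Both the largest decreases and the receptors above 0 lay among the 25 members under 20 TPM. That group is larger than the 7, so its range can be wider by size alone.

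All members together summed to 1485 ± 151 CPM in wild type against 887 ± 76.4 in knockouts (SD, n = 3 each), 59.7% of wild type. They made up 25.1% ± 0.700 of the reads of all V2R genes in wild type and 23.2% ± 0.513 in the knockout (SD, n = 3 each). Within the members' own reads, the chromosome 5 cluster went from 17.6% ± 1.71 to 9.43% ± 1.20, while Vmn2r84 to Vmn2r87 went from 4.75% ± 0.574 to 7.86% ± 0.285 (SD, n = 3 each). The other V2R genes, without family C, had 41 of 81 tested genes called lower and 7 higher, with a median log2 fold change of -0.69. The difference between the sets was not tested.

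Receptors that were alike upstream included both called and uncalled genes. RefSeq's promoter table held 29 of the 32 members, all but Vmn2r21, Vmn2r122 and Vmn2r125. Over the 250 bases upstream of the start, the median identity was 52.7% for all 406 pairs and 82.3% for pairs within 1 cluster. Linking pairs of at least 80% identity joined 13 genes across chromosomes, Vmn2r8 to Vmn2r16 with Vmn2r84 to Vmn2r87. In that group 7 genes were called lower and 6 were not, with log2 fold changes from -2.87 to 0.44. The group of 7 chromosome 6 genes had 5 called lower and 2 not, from -2.67 to 0.22.

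Of the 9 pairs of at least 90% upstream identity, 2 had both genes called lower, 1 had neither, and 6 had 1 of each. The most alike pair, Vmn2r12 and Vmn2r13 at 96.4%, differed by 2.30 in log2 fold change. The next, Vmn2r20 and Vmn2r22 at 95.2%, differed by 1.95. Vmn2r89 and Vmn2r121 lie on different chromosomes, are 93.2% identical upstream, and had similar changes of -0.81 and -0.95. Over all pairs, Spearman's rho between identity and the difference in log2 fold change was 0.02, a description, since pairs share genes and libraries.

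**Figure D4:**
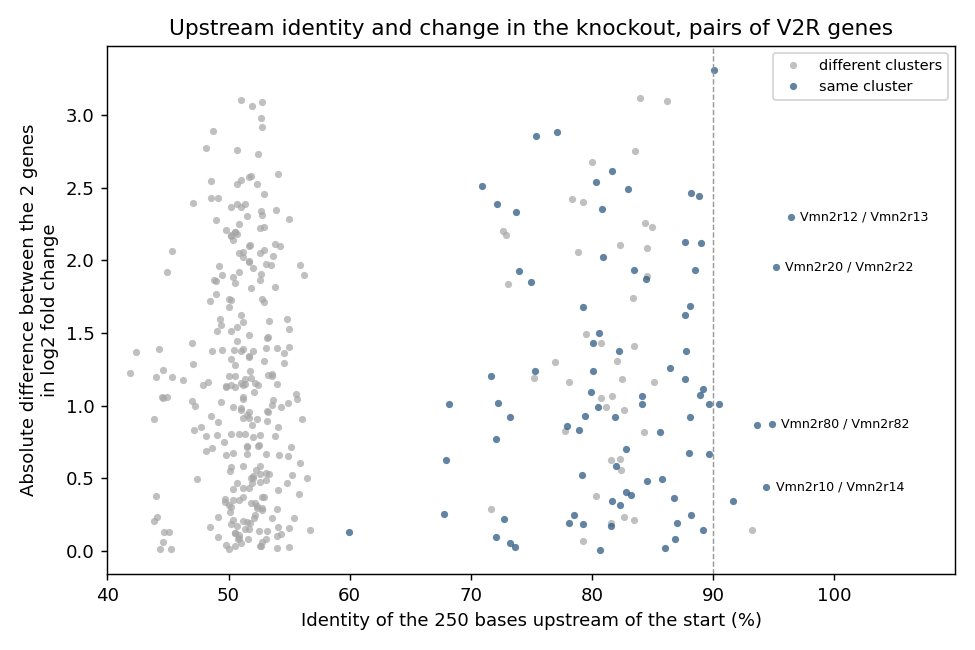
Absolute difference in log2 fold change between 2 receptors (vertical) against the identity of their 250 upstream bases in percent (horizontal) for 406 pairs, with pairs from 1 cluster in blue and a dashed line at 90%. Pairs to the right of the line span differences from 0.14, for Vmn2r89 and Vmn2r121, to 3.31, for Vmn2r11 and Vmn2r12.

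Short motifs were searched on both strands of the same 250 bases, with 1 promoter per gene. TAATTA, a homeodomain core, occurred in 8 of 29 members (4 of 16 called lower and 4 of 13 not called), in 11 of 87 other V2R promoters and in 4.90% of 27025 promoters. GCCNNNGGC, an AP-2 type motif, occurred in 3 of 29 members, 6 of 87 other V2R promoters and 13.6% of all promoters. CAGCTG, an E-box, occurred in 0 of 29 members, 10 of 87 other V2R promoters and 12.8% of all promoters. A palindromic EBF type motif, also searched, occurred in 0 of 29 members, 0 of 87 other V2R promoters and 0.788% of all promoters. These are matches of letters and not binding sites.

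Reads assigned to protein-coding transcripts alone were compared as well. Of the 18 members with both coding and other transcripts quantified, 12 were called lower. For 10 of these the log2 ratio of coding reads lay between -0.79 and -3.41. For the other two, Vmn2r23 and Vmn2r26, the coding transcript was assigned reads in a single wild-type library (74.4 and 90.2 estimated reads) and 0 elsewhere. The most used transcript of both is annotated for nonsense-mediated decay. Among the 10, the ratio of -3.41 was that of Vmn2r25. Its coding transcript was assigned only 15.5, 0 and 7.86 estimated reads in knockout mice 1, 2 and 3.

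Neighbours of the receptors without a V2R name were tested in the same fit. They were set apart by name only, and whether pseudogenes among them derive from V2R genes was not checked. Of 40 tested neighbours without a V2R name, lying within the clusters or among the 3 nearest tested genes on either side, 1 was called lower and 0 higher, beside 0.689% and 0.0779% of all genes tested. Their median log2 fold change was 0.02. The called gene was Gm7171, a pseudogene between Vmn2r16 and Vmn2r17. It held 0.33 ± 0.0919 CPM in wild type against 0.0544 ± 0.0125 in knockouts (SD, n = 3 each). This log2 fold change of -2.57 (edgeR adjusted p = 0.0425) rests on 3 to 27.1 estimated reads per library. Of the 4 neighbours with a V2R name, Vmn2r88 beside Vmn2r89 (-0.89, edgeR adjusted p = 0.00173) and Vmn2r-ps159 beside Vmn2r125 (-0.88, edgeR adjusted p = 0.000385) were called lower.

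Genes that work with these receptors in basal neurons were tested in the same fit. Over all genes tested, 0.689% were called lower, 47.7% lay below 0 and 10.5% had an unadjusted edgeR p under 0.05. Every knockout lay below every wild type for 8.95%. Of the 7 family C V2R genes, 3 were called lower, with a median of -0.44. All 7 lay below 0, 6 had an unadjusted edgeR p under 0.05 and 5 had every knockout below every wild type. Vmn2r1 changed by -0.72 (SE 0.06, edgeR adjusted p = 0.000616), Vmn2r6 by -0.65 (edgeR adjusted p = 0.00854) and Vmn2r7 by -0.61 (edgeR adjusted p = 0.0113). Of the 9 H2-Mv genes, nonclassical MHC class I genes expressed in basal neurons, 2 were called lower, with H2-M10.3 at -0.59 (edgeR adjusted p = 0.0104) and, less far down, H2-M10.1 at -0.42 (edgeR adjusted p = 0.0349). H2-M10.4 had the opposite sign, at 0.44 with every knockout above every wild type, and was not called (edgeR adjusted p = 0.162). The other 8 lay below 0, 5 of them with every knockout below every wild type. Unadjusted edgeR p was under 0.05 for 6 of the 9, H2-M10.4 among them. Of 11 transduction genes 1 was called lower, the G protein subunit Gnao1 (-0.41, SE 0.05, edgeR adjusted p = 0.0141). The channel gene Trpc2 (-0.32, edgeR adjusted p = 0.197) and the G protein subunit gene Gng8 (-0.32, edgeR adjusted p = 0.294) were not called. Nor were Ano2 (-0.26, edgeR adjusted p = 0.107), Kcnn3 (-0.31, 0.107), Plcb2 (-0.35, 0.276) and Gnb1 (-0.22, 0.354). Of the 11, 7 had a log2 fold change below 0, each with every knockout below every wild type. The other 4 lay above 0 and were not called. They were the calcium channel gene Itpr3 (0.28, edgeR adjusted p = 0.441) and Kcnj3 (0.30, edgeR adjusted p = 0.816), with Plcb4 (0.19, edgeR adjusted p = 0.523) and Ano1 (0.05, edgeR adjusted p = 0.932). Unadjusted edgeR p was under 0.05 for 8 of the 11, the 7 below 0 and Itpr3.

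Summed levels of markers, on the scale of the cluster sums, were as follows, and their part in the receptor changes was not tested. The counts of genes at an unadjusted edgeR p under 0.05 stand beside the 10.5% of all genes tested. The 5 mature neuron genes summed to 2520 to 2869 CPM in wild-type mice and 2012 to 2304 CPM in knockouts, with Stom called lower (-0.36, edgeR adjusted p = 0.0353). All 5 had a log2 fold change below 0, and 3 were at an unadjusted p under 0.05. The 4 genes listed for basal neurons, Tfap2e, Robo2, Calr4 and B2m, summed to 838 to 961 and 787 to 854 CPM. Of these 0 were called and 3 were at an unadjusted p under 0.05. All 4 had a log2 fold change below 0 and every knockout below every wild type on the TMM scale, a pattern seen in 8.95% of all genes. B2m is not particular to basal neurons. It had the highest level of the 4 (399 CPM in wild type, TMM scale) and the smallest change (-0.08), so the sum does not follow basal neurons alone. The 4 apical class genes, Gnai2, Gng2, Meis2 and Nrp2, summed to 1449 to 1544 and 1473 to 1730 CPM, with 0 called and 1 at an unadjusted p under 0.05. All 4 had a log2 fold change above 0, and 2 had every knockout above every wild type. Of 6 progenitor and immature neuron genes, 1 was called higher, the proliferation gene Top2a (0.40, edgeR adjusted p = 0.0419), and they summed to 97.3 to 124.7 and 110 to 143 CPM. All 6 lay above 0, and 3 were at an unadjusted p under 0.05, among them Mki67 (0.51, edgeR adjusted p = 0.0645). Lists for main olfactory neurons, supporting cells, glia, immune cells and vessels had 0 called among 5, 5, 4, 4 and 4 genes, with 1, 0, 1, 2 and 0 at an unadjusted p under 0.05. Their summed ranges overlap between the genotypes.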

How the data were processed

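Per the file headers, the authors deposited estimated counts (expected reads) and TPM for 117081 transcripts in each of 6 libraries. The submitters' processing notes name Trim Galore 0.6.6, Salmon 1.9.0, DESeq2 and GRCm38. The transcript index is not given in the sources used here. Salmon divides reads that fit several transcripts, so similar receptors can trade reads. Transcripts were joined to genes in GENCODE M21, scaffolds included (116021 matched; the rest held 0.270% of reads), and estimated counts were summed per gene and rounded. Groups and sexes come from the labels.

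The main test was edgeR 4.0.16 (R 4.3.3) quasi-likelihood with TMM scaling, filterByExpr and genotype as the term, adjusted by Benjamini-Hochberg over all genes. SE is the log2 fold change divided by the square root of F. Alternatives used DESeq2 1.42.0 and limma 3.58.1 (log2 of TPM plus 0.5). The common biological coefficient of variation was 12.8%. Uniqueness is the share of a gene's 31-base words found in no other quantified gene whose sequence was searched. The sequence of Vmn2r122 was not searched, so words shared with it alone count as unique. Upstream sequences were aligned globally with Biopython 1.88. Named members are, per cluster, the 3 most abundant and the 3 called genes with the largest change, members at or below 1 CPM on average over the 6 libraries being named without a fold, plus members singled out after their values were seen (among them Vmn2r8, Vmn2r12, Vmn2r14 and Vmn2r26). Members and lists were chosen with earlier results of these data known. Errors are SDs over mice or SEs of the fit, and sums over members have no test.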

Additional observations from a re-analysis of the deposited data

How the results depend on the processing

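Of the 18 receptors called lower, 13 kept the call in all 14 alternative fits, and 0 changed sign. The exceptions were Vmn2r15, Vmn2r16, Vmn2r82, Vmn2r89 and Vmn2r125. Sizes moved more. The smallest decrease in the 14 fits was -0.88 for Vmn2r85 (-2.24 in the main fit) and -0.89 for Vmn2r26 (-1.66), both under 2-fold. Members called lower numbered 13 in males only (0.405% of all genes in that fit), 19 by DESeq2 (1.76%) and 15 to 18 when 1 library was left out (0.397% to 0.475%). Of the 28 members with over 50% unique words, 16 were called. The 2 called members outside that set are Vmn2r125 and Vmn2r122, whose uniqueness was not measured. The median over the members ran from -0.84 to -1.025 when 1 library was left out. Deviations from the group mean correlated at 0.150, -0.0976 and 0.231 between same-numbered mice. With 3 mice per genotype, these values do not settle whether the numbers pair mice. With the replicate block, 17 members were called lower (0.731% of all genes) and the median was -0.92. The chromosome 6 sum moved from -0.26 to -0.78 with summed TPM and to -0.10 with members over 50% unique, which leaves out Vmn2r21. With both, an alternative chosen after seeing the data, it was -0.39. It ran from -0.32 to -0.17 when 1 library was left out. The log2 ratio of the Vmn2r84 to Vmn2r87 sum, -0.01, changed sign to 0.0206 with TMM scaling, and ran from -0.0822 to 0.0840 when 1 library was left out (0.0840 without wild-type replicate 3 and 0.0753 without knockout replicate 1). Depth limits Vmn2r19, with at most 16.01 reads in a library.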
